A study of Mus musculus with 10 samples.

Results

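The transcriptional response of Atf3-/- macrophages to LPS was taken from 5 of the 10 arrays of the series: 2 arrays of Atf3-/- cells with LPS and 3 arrays of Atf3-/- cells without it, as their titles give them. The response of a gene is the mean log2 expression value of the arrays with LPS minus that of the arrays without. It covers 16856 of the 16860 probesets in the table, each representing a single Ensembl gene and spoken of below as a gene. The 4 probesets left out were either on or off in each array, and among the Atf3-/- arrays this state cut across treatment. In all, 1 of them was on in 5 arrays, at 8.95 to 9.57 on the log2 scale against 2.94 to 3.76 in the other 5, where the remaining 3 were on. In wild type the state coincided with treatment, since all 3 arrays without LPS were in one state and both arrays with LPS in the other. State and LPS therefore cannot be told apart in the wild type response, and this bears on every value below that uses it.

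The cells were macrophages grown from femoral bone marrow of mice of strain C57BL/6J aged 8 to 12 weeks, in medium with recombinant human M-CSF at 50 ng/mL. Cells of the treated groups were exposed to 10 ng/mL LPS over 4 h, and the labels state that TNF in the supernatants was used to check the stimulation. The groups with LPS and without LPS were both Atf3-/-, and 5 arrays of wild type cells, 2 with LPS and 3 without, served for comparison. RNA was hybridised to Affymetrix Mouse Genome 430 2.0 arrays. All mice are labelled female, which was not checked here, and the 5 against 5 division of the arrays by state has no counterpart in the labels. The labels give neither the allele nor the number of mice or cultures behind a group, so a p-value here reflects array-to-array spread that may be technical only.

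LPS, a glycolipid of the Gram-negative bacterial surface, is sensed by macrophages through CD14, MD-2 and Toll-like receptor 4. The adaptors MyD88 and TRIF then lead to activation of NF-kB, of AP-1 factors and of interferon regulatory factors, which drive inflammatory and interferon-stimulated genes. ATF3 is a bZIP transcription factor that Toll-like receptor signals induce in macrophages, and it is known mainly as a repressor of inflammatory genes.

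Rows of the table are Ensembl gene IDs. No gene name stands beside an ID in the files, and 0 of the IDs occur in the reference tables used, so genes are given by ID and no pathway, promoter, cell type marker or function is assigned to them. The level of Atf3 itself was not analysed here, and the genotype rests on the labels alone. The same holds for the labelled cell type.

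In Atf3-/- macrophages LPS changed 6931 genes, 41.1% of those tested, with 2784 higher (16.5%) and 4147 lower (24.6%). A gene is called changed at an adjusted p under 0.05 in limma, a linear model fitted to all genes and all 10 arrays, with Benjamini-Hochberg adjustment. Falls outnumbered rises and made up 59.8% of the calls. This balance moved with median subtraction, after which 3761 genes were called higher and 3718 lower, so that falls were 49.7% of the calls. Under quantile normalization falls were 58.4% of the calls. The median log2 difference of all genes was 0.06, against 0.57 among genes called higher and -0.67 among genes called lower.

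Most changes were small and the large ones were mainly rises. Of the called genes 5045, or 72.8%, changed by less than 2-fold, and the smallest called difference was 0.24 on the log2 scale. At least 2-fold, 852 genes rose (5.05% of those tested) and 1034 fell (6.13%). At least 4-fold, 341 rose and 157 fell, and the order had turned. Rises of at least 8-fold numbered 166 and falls 29. At least 16-fold, 73 genes rose and 5 fell. Rises of at least 128-fold were found for 9 genes, and no fall reached 64-fold. The number of falls of at least 16-fold was 8 without LPS replicate 2 and 3 after median subtraction.

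**Figure D1:**
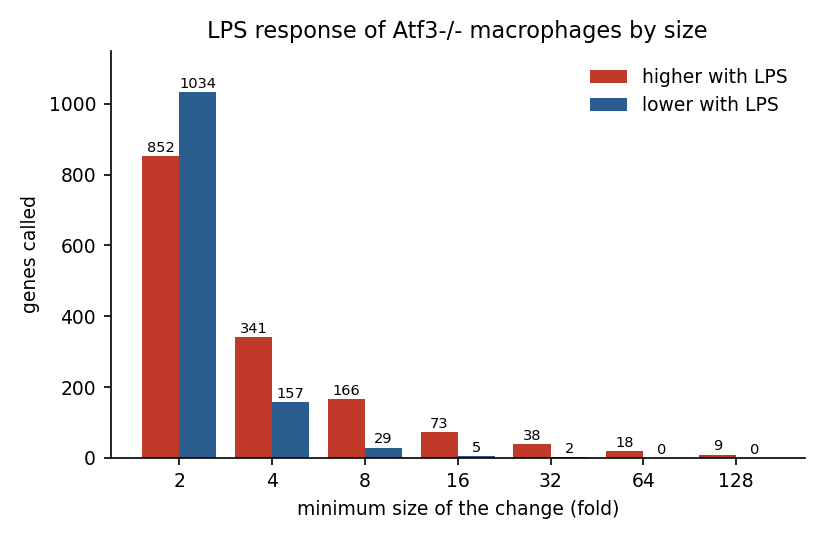
Number of genes called higher (red) and lower (blue) with LPS in Atf3-/- macrophages, by the minimum size of the change in fold, each bar including those to its right. Falls outnumber rises at 2-fold, with 1034 against 852, and rises outnumber falls from 4-fold onward.

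The largest rise was that of ENSMUSG00000025746. Its log2 expression was 3.16, 3.01 and 3.09 in the 3 arrays without LPS and 12.91 in both arrays with LPS. The groups lay far apart and the arrays with LPS were nearly equal. The log2 difference was 9.83 (SE 0.10, limma adjusted p = 1.15e-13). ENSMUSG00000032487 was second, at 3.23, 3.38 and 3.25 without LPS and at 12.26 and 12.07 with it. Its log2 difference was 8.88 (SE 0.11, adjusted p = 4.49e-13). Both started close to the lowest values of these arrays, which were 2.27 to 2.36. Levels there hold background signal, so these folds depend on the background correction, which is not given in the sources used here.

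The largest fall was that of ENSMUSG00000063193, which stood at 10.98, 11.15 and 11.15 without LPS and at 5.51 and 5.26 with LPS. All arrays with LPS lay below all arrays without it, and the log2 difference was -5.71 (SE 0.11, limma adjusted p = 1.53e-11). ENSMUSG00000038332 stood at 9.68, 9.80 and 9.81 without LPS and at 4.22 and 4.51 with LPS. The groups again lay far apart, and the gene fell by 5.40 on the log2 scale (SE 0.13, limma adjusted p = 1.08e-10). Unlike the largest rises, these falls started well above the lowest values of the arrays.

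**Figure D2:**
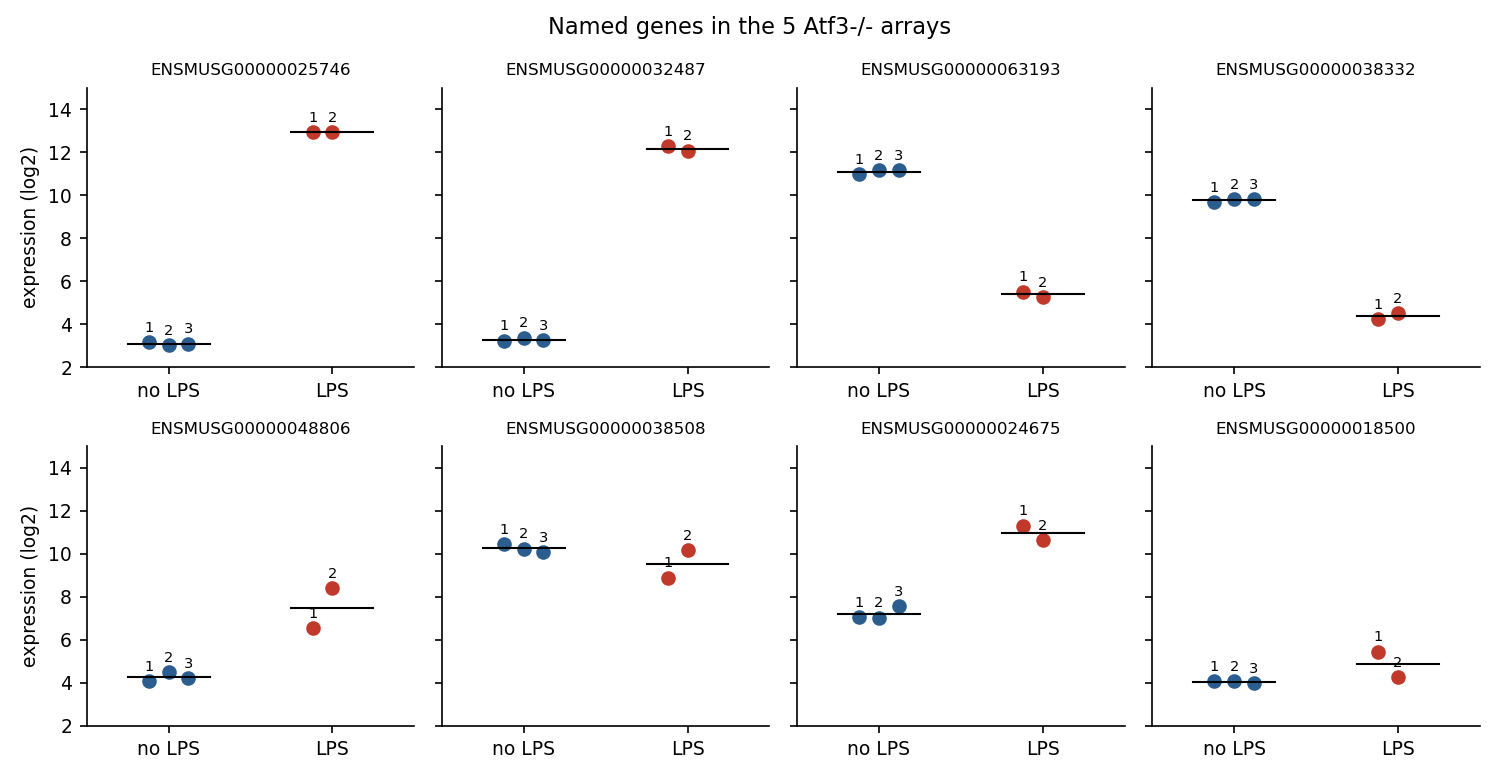
Log2 expression of 8 genes in the 5 Atf3-/- arrays, without LPS (blue) and with LPS (red), with replicate numbers beside the points and a line at each group mean. In the upper row, the largest rises and falls, the arrays of a group lie close together, and in the lower row, the largest response differences from wild type, the arrays with LPS lie further apart.

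The 73 genes that rose at least 16-fold had log2 group means of 2.74 to 9.24 without LPS and a median of 5.34. With LPS they lay between 6.97 and 13.59, with a median of 11.36. The 29 genes that fell at least 8-fold went the other way, from 6.58 to 11.65 without LPS to 2.97 to 8.54 with it. Their medians were 8.52 and 5.15. In the median gene of the strongly rising class the arrays with LPS were 0.25 apart, and 4 of the 73 genes had arrays with LPS more than 2-fold apart.

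Rises and falls came from different parts of the signal range. Genes were divided into 4 bins of 4214 by their mean signal in the wild type arrays without LPS, which take no part in the Atf3-/- difference. In the lowest bin, at 2.35 to 4.04 on the log2 scale, 11.7% of the genes rose and 1.26% fell. The second bin had 20.4% rising and 8.85% falling. In the third, 19.2% rose and 35.9% fell. In the highest bin, at 7.44 to 14.15, 14.8% rose and 52.4% fell. Of the 73 genes that rose at least 16-fold, 13 lay in the lowest bin, 35 in the second, 22 in the third and 3 in the highest. Of the 29 that fell at least 8-fold, 24 lay in the highest bin and 5 in the third. A gene near background has little room to fall in this measurement, and how much of the pattern this accounts for was not tested.

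**Figure D3:**
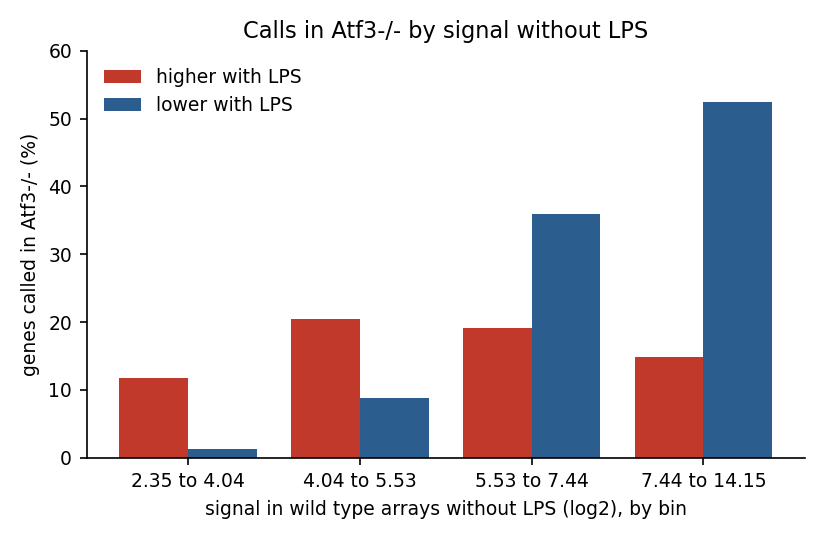
Share of genes called higher (red) and lower (blue) with LPS in Atf3-/- macrophages, in percent, for 4 bins of 4214 genes by their log2 signal in wild type arrays without LPS. The share called lower goes from 1.26% in the lowest bin to 52.4% in the highest, and the share called higher lies between 11.7% and 20.4% throughout.

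For the genes without a call the arrays set narrow limits on the measured difference. These limits rest on array-to-array spread, which may be technical only. The log2 group means of the uncalled genes without LPS went down to 2.41, with a median of 4.54. Near background a narrow interval limits the measured signal and says little about expression. Of the 9925 genes not called, 9844 had a 95% interval that lay within 2-fold of no change, and 81 had one that reached beyond it. Only 1 gene that was not called differed by 2-fold or more in the means. At the other end, the whole interval lay above a 2-fold rise for 610 genes and below a 2-fold fall for 544. The median standard error of the response was 0.12 on the log2 scale. Arrays with and without LPS did not overlap for 2769 of the 2784 genes called higher and 4136 of the 4147 called lower. Over all 16856 genes they did not overlap for 11126, of which 4221 were not called. Separation of 2 from 3 arrays alone was thus common.

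The 2 arrays with LPS differed in how far they had moved. The arrays were placed along the wild type response, where 0 is the mean of wild type cells without LPS and 1 that of wild type cells with LPS, so that the Atf3-/- arrays played no part in setting the scale. This scale runs from arrays of one state to arrays of the other and so holds any effect of the state as well as that of LPS. Without LPS the Atf3-/- arrays lay at 0.101, 0.111 and 0.122. With LPS, replicate 1 lay at 0.957 and replicate 2 at 0.847. The groups did not overlap, and their means of 0.902 ± 0.0778 (SD, n = 2) and 0.111 ± 0.0105 (SD, n = 3) gave an exact permutation p = 0.1 (two-sided), the smallest that 2 against 3 arrays allow. Replicate 2 thus lay closer to the unstimulated arrays than replicate 1 did. It shared its state with the wild type arrays without LPS, while replicate 1 shared that of the wild type arrays with LPS. Among the Atf3-/- arrays without LPS, replicate 3 was in the state of LPS replicate 2 and lay highest, at 0.122. Any effect of the state on these positions was not tested.

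The shift of replicate 2 was spread over many genes. Of the 1069 genes that rose at least 2-fold in wild type, 74.1% had a lower value in Atf3-/- LPS replicate 2 than in replicate 1, with a median difference of -0.20 on the log2 scale. Of the 1255 genes that fell at least 2-fold in wild type, 19.0% had a lower value in replicate 2, with a median difference of 0.26. Over all genes the share was 47.1% and the median 0.01. The arrays with LPS were more than 2-fold apart for 107 genes, of which 48 were called higher, 38 called lower and 21 not called. Arrays without LPS were more than 2-fold apart for 17 to 24 genes, depending on the pair.

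The arrays with LPS also differed in the on or off state of the 4 probesets left out. Replicate 2 with LPS and replicate 3 without LPS were in one state, and replicate 1 with LPS and replicates 1 and 2 without LPS in the other. Differences between the arrays with LPS therefore cannot be told apart from the state. The response itself could be computed within each state, from arrays that are not shared. It was 9.82 and 9.83 for ENSMUSG00000025746, 8.82 and 8.96 for ENSMUSG00000032487, -5.89 and -5.55 for ENSMUSG00000063193, and -5.30 and -5.52 for ENSMUSG00000038332.

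Within the state that holds LPS replicate 2, 813 genes were at least 2-fold higher and 869 at least 2-fold lower. Within the state that holds LPS replicate 1 the numbers were 927 and 1246. Of these, 725 were higher and 727 lower in both. Of the 2324 genes that changed at least 2-fold in wild type, 98.8% had the same sign in both states of Atf3-/-. Such genes were chosen for large changes, and the share over all genes is not given here for comparison. The correlation of the responses within the states was r = 0.934 across all genes, which are no independent replicates.

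**Figure D4:**
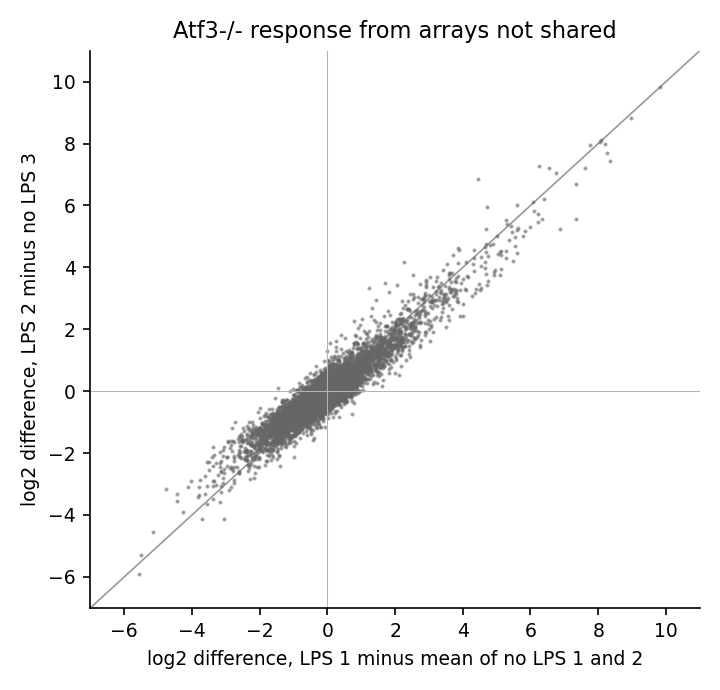
Log2 difference with LPS of each of the 16856 genes in Atf3-/- macrophages, from LPS replicate 2 minus unstimulated replicate 3 (vertical) against LPS replicate 1 minus the mean of unstimulated replicates 1 and 2 (horizontal), with the line of equality. The points follow the line with r = 0.934, and many of the larger responses lie closer to 0 on the vertical axis.

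The response without ATF3 was next set beside that of wild type cells, to which it contributes no arrays. The differences between the genotypes given here carry any effect of the array state, in which wild type arrays with and without LPS differed wholly. Of the 6931 genes called in Atf3-/-, 4908 were called in wild type in the same direction. Another 22 rose in Atf3-/- and fell in wild type, and 42 fell in Atf3-/- and rose in wild type. In wild type, 41.3% of all genes tested were called. The remaining 1959 genes were called in Atf3-/- and not in wild type. That a gene was called in 1 genotype does not show that the genotypes differed. In limma's test of the response difference, Atf3-/- minus wild type, 180 of these 1959 genes passed.

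The genes called in Atf3-/- and not in wild type were mostly small responses of the same sign. Their median size was 0.45 on the log2 scale, against 0.79 for genes called in both, and 1527 of the 1959 had the same sign in wild type. Rises made up 941 of them, of which 46 passed the test of the difference. Falls made up 1018, of which 134 passed. Only 91 changed at least 2-fold, and 44 of these passed.

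The strongest Atf3-/- responses were all present in wild type. Each of the 73 genes that rose at least 16-fold in Atf3-/- was called higher in wild type, with a log2 difference there of 2.89 to 9.16 and a median of 5.80, against a median of 5.17 in Atf3-/-. The wild type rise was the larger in 52 of the 73, and likewise in 599 of the 852 genes that rose at least 2-fold. This did not hold for the 1932 genes called higher with a rise under 2-fold, where the wild type change was the larger in 717. The test of the difference called 19 of the 73 lower and 6 higher in Atf3-/-, where 3.58% and 2.38% of all genes tested were called in these directions. The 29 genes that fell at least 8-fold in Atf3-/- were all called lower in wild type, at -4.97 to -2.07, and the wild type fall was the larger in 14. Here 5 response differences were called below 0 and 1 above 0. These classes were chosen by their size in Atf3-/-, which favours genes that happened to be measured high there.

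**Figure D5:**
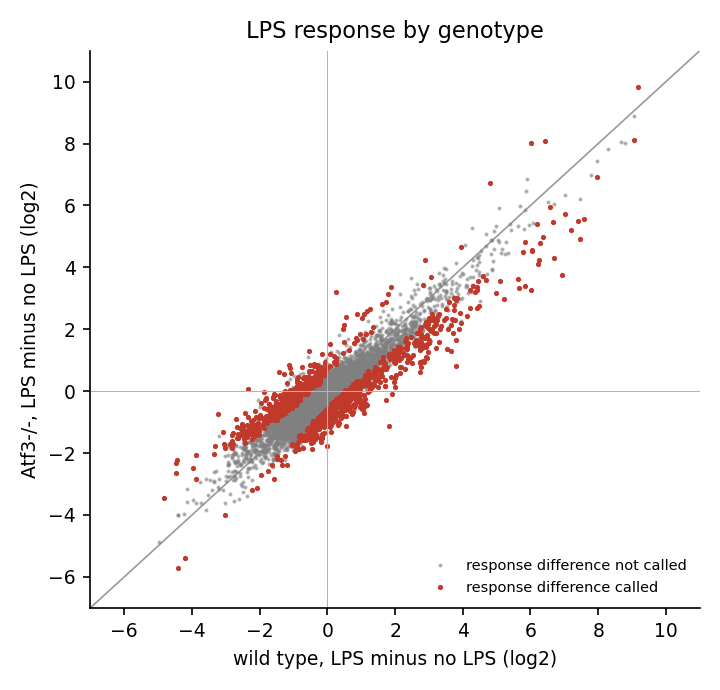
Log2 difference with LPS of each of the 16856 genes in Atf3-/- (vertical) against wild type macrophages (horizontal), with the line of equality. Red points are the 1005 genes whose response difference was called, and many red points at large wild type rises lie below the line.

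The response difference was called for 1005 genes, 5.96% of those tested, and 755 of these were called in Atf3-/-. A further 248 were called in wild type and not in Atf3-/-. The count was sensitive to single arrays. It was 290 without wild type LPS replicate 1 and 500 without Atf3-/- LPS replicate 2. Among the unstimulated arrays, omission of Atf3-/- replicate 2 gave 524, of Atf3-/- replicate 3 gave 613 and of wild type replicate 1 gave 571. With the on or off state as a covariate, whose effect is then estimated from the Atf3-/- arrays alone, it was 133. Since the state and LPS coincided in wild type, the larger count holds any effect of the state. The covariate also widened the standard errors of the named genes, so the smaller count mixes lost precision with any such effect. The response difference of ENSMUSG00000024675 was -3.16 (SE 0.28) without the covariate and -3.18 (SE 0.38) with it. That of ENSMUSG00000048806 went from 2.96 (SE 0.55) to 2.08 (SE 0.61).

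The largest falls in Atf3-/-, chosen for their size there, were smaller in wild type, while over all 5 falls of at least 16-fold the wild type fall was the larger in 2. ENSMUSG00000063193 fell by 5.71 in Atf3-/-, and its wild type difference was -4.41 (response difference -1.30, SE 0.15, limma adjusted p = 0.00199). ENSMUSG00000038332 had a wild type difference of -4.22 (response difference -1.18, SE 0.19, adjusted p = 0.00626). The rise of ENSMUSG00000025746 was 9.16 in wild type (response difference 0.66, SE 0.15, adjusted p = 0.0253). This last call was lost with the state as a covariate (0.66, SE 0.20, adjusted p = 0.169), with the replicate number as a block (0.71, adjusted p = 0.0629), and when any of 5 single arrays was left out. The response difference was then 0.66 without Atf3-/- LPS replicate 2 (adjusted p = 0.0691), 0.63 and 0.67 without Atf3-/- unstimulated replicate 2 or 3 (adjusted p = 0.0634 and 0.0545), 0.57 without wild type LPS replicate 1 (adjusted p = 0.109) and 0.60 without wild type unstimulated replicate 2 (adjusted p = 0.0519). ENSMUSG00000032487 rose by 9.07 in wild type, and its response difference of -0.19 did not pass (SE 0.16, adjusted p = 0.559).

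Among the genes with the largest response differences, the Atf3-/- arrays with LPS often disagreed. ENSMUSG00000048806 stood at 4.08, 4.48 and 4.21 without LPS and at 6.53 and 8.38 with LPS. The groups did not overlap, but the arrays with LPS were 1.85 apart, which is the widest gap among the genes that rose at least 2-fold. The Atf3-/- rise was 3.20 (SE 0.39, limma adjusted p = 4.29e-05), while the wild type difference was 0.25 (adjusted p = 0.654). ENSMUSG00000038508 stood at 10.44, 10.22 and 10.06 without LPS and at 8.87 and 10.15 with LPS. Here replicate 2 lay within the range of the unstimulated arrays and only replicate 1 lay below it. The Atf3-/- difference of -0.73 did not pass (SE 0.27, adjusted p = 0.0505), against -3.22 in wild type. It lay at the threshold and passed under quantile normalization (-0.83, adjusted p = 0.0274), with dim genes filtered (adjusted p = 0.0376), with a trended robust prior (adjusted p = 0.0436) and with the state as a covariate (-0.80, adjusted p = 0.0307). Without replicate 2 it was -1.37 (adjusted p = 5.23e-05).

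ENSMUSG00000024675 stood at 7.04, 7.02 and 7.56 without LPS and at 11.30 and 10.63 with LPS. The Atf3-/- rise of 3.76 (SE 0.20, limma adjusted p = 4.31e-08) compares with 6.92 in wild type, whose level without LPS was 4.22 ± 0.08 (SD, n = 3). The levels with LPS were close, at 10.97 ± 0.48 (SD, n = 2) in Atf3-/- and 11.13 ± 0.10 (SD, n = 2) in wild type. For this gene the genotypes thus differed before LPS. ENSMUSG00000018500 stood at 4.07, 4.07 and 3.97 without LPS and at 5.44 and 4.26 with LPS, so that most of its rise was in replicate 1. Its Atf3-/- rise of 0.81 passed (SE 0.26, adjusted p = 0.0263), and was 0.22 (adjusted p = 0.350) without replicate 1. In wild type it rose by 3.81.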

How the data were processed

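The table deposited by the authors holds log2 expression, with 1 value for each probeset in each array. As the submitters' design text states, probe intensities released earlier were re-processed with CustomCDF version 13 probesets by Ensembl gene. The submitters' processing notes name affy 1.26.1. How background, differences between arrays and probes of a set were treated is not given in the sources used here.

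All 10 arrays were fitted with 1 mean per group in limma 3.58.1 (R 4.3.3, lmFit and eBayes), with 6 residual degrees of freedom. The response in Atf3-/- and its difference from wild type were tested two-sided, and p-values were adjusted by Benjamini-Hochberg across the 16860 rows before the 4 on or off rows were left out. No filter on low values was applied in this fit. The fit was tried on simulated data in 3 runs, each with 200 genes changed, far fewer than were called here. The simulated arrays had independent noise and no array state, so these runs do not test the reported calls. The number of arrays limits the precision.

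The arrays, gene lists and tests were chosen with earlier results of these data known. The rule for named genes asked for symbols: for the response, the called genes of largest rise and fall whose arrays do not overlap, and for the response difference the largest called values. Without symbols it was applied to IDs, 2 in each direction. The 37 gene lists, the markers, the level of Atf3 and the promoter motifs were not run because they need gene names. No sequence is shown for the same reason.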

Additional observations from a re-analysis of the deposited data

Results flagged for a closer look

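The following results differed between the genotypes by limma's test of the response difference, Atf3-/- minus wild type. It called 1005 genes, 755 of them also called in Atf3-/-. With the array state as a covariate, which widened the standard errors of the genes named below, it called 133. State and LPS coincided in the wild type arrays, so these differences carry any effect of the state. Above 0 were ENSMUSG00000048806 at 2.96 (SE 0.55, adjusted p = 0.0121), ENSMUSG00000038508 at 2.49 (SE 0.39, adjusted p = 0.00584) and ENSMUSG00000025746 at 0.66 (SE 0.15, adjusted p = 0.0253). Below 0 were ENSMUSG00000024675 at -3.16 (SE 0.28, adjusted p = 8.16e-04) and ENSMUSG00000018500 at -3.00 (SE 0.37, adjusted p = 0.00230). ENSMUSG00000063193 at -1.30 and ENSMUSG00000038332 at -1.18 fell further in Atf3-/-.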

How the results depend on the processing

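The number of genes called in Atf3-/- lay between 6031 (dim rows filtered) and 7479 (median of each array subtracted) under the other normalizations, the filter, the other prior, array weights, the covariate and the fit of only the Atf3-/- arrays, and 5615 to 6722 of the calls were shared with those reported. Leaving out single arrays gave 5063 to 6994 calls, 1912 to 2864 higher and 3151 to 4163 lower. A 2-fold minimum left 1886 calls, 852 higher and 1034 lower, by construction. With the replicate number within genotype as a block, 6253 genes were called in Atf3-/-, and 482 response differences. The labels do not say what the numbers share, and the deviations of same-numbered arrays with and without LPS correlated at 0.245 and 0.114. The deviations of the 2 arrays with LPS mirror each other, so these are not separate observations of a pairing. The differently numbered pair of LPS replicate 2 and unstimulated replicate 3 reached 0.162. Response differences numbered 133 with the array state as a covariate and 383 at a 2-fold minimum, and 290 to 1360 without single arrays. State and LPS cannot be told apart in wild type, and the state covariate widened the standard errors of the response differences of the named genes. The rise of ENSMUSG00000018500 missed the threshold under quantile normalization (0.72, adjusted p = 0.0640) and in the fit of only the Atf3-/- arrays (adjusted p = 0.0566), and without any of the 3 Atf3-/- unstimulated arrays. The response difference of ENSMUSG00000048806 missed it with the state as a covariate (2.08, adjusted p = 0.150) and without wild type LPS replicate 1 (2.93, adjusted p = 0.0546), and that of ENSMUSG00000038508 with the state (2.03, adjusted p = 0.0799). The Atf3-/- fall of ENSMUSG00000038508 gained a call under 5 alternatives. The alternatives for the gene lists were not run. Signal near background limits falls of dim genes and the size of rises from the lowest levels.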
